A study of Rattus norvegicus with 6 samples.

Results

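Potassium channel transcripts of the heart were followed in rat myocardium after 30 min of ischemia. The set was chosen by gene name and holds 10 genes: Kcnj2, Kcnj3, Kcnj11, Abcc9, Kcnq1, Kcnh2, Kcnd2, Kcnd3, Kcna5 and Kcnip2. Of these, 9 were matched by name among the 32623 genes of the deposited table, and all 9 were among the 13964 genes that passed a filter on low values (FPKM averaging 0.5 or more across the 6 libraries) and were tested. Kcnd2 is not analysed here. RNA sequencing covered 3 samples of sham-operated myocardium and 3 with ligation of the left anterior descending coronary artery, all from male rats labelled WT, with the same 30 min in the labels of both groups. The labels call the tissue myocardial and name no strain, age, chamber or distance from the ligature. The labels do not say whether the 3 samples of a group came from separate rats, and p-values measure the spread between these samples, which may be technical.

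Potassium channels carry the outward currents that end the cardiac action potential and set its resting potential. Kcnd2 and Kcnd3 form the pores of the fast transient outward current together with the accessory subunit Kcnip2, Kcna5 carries an ultrarapid delayed rectifier, and Kcnq1 and Kcnh2 carry the slow and rapid delayed rectifiers. Kcnj2 and Kcnj12 carry the inward rectifier that holds the resting potential, Kcnj3 and Kcnj5 the current opened by acetylcholine in the atria, and Kcnj11 with the sulfonylurea receptors encoded by Abcc9 and Abcc8 the ATP-sensitive current that opens when ATP falls. Rat ventricle repolarizes mainly through transient outward currents, and Kcnj3, Kcnj5 and Abcc8 are known as genes of the rodent atrium.

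Libraries held between 68529126 and 79591989 counts. The samples of the sham group were unlike each other. Summed FPKM (fragments per kilobase, scaled to library size) of 12 atrial marker genes was 50362 in sham replicate 1, 488.0 in sham replicate 2 and 40679 in sham replicate 3, and 10122, 2198 and 1450 in ischemia replicates 1 to 3. Their geometric mean was 282.5, 14.3 and 307.4 FPKM in sham and 61.5, 7.94 and 8.12 in ischemia. By this mean sham replicate 2 lay above ischemia replicates 2 and 3, while by the sum it lay below them. Nppa alone gave 67.7 FPKM in sham replicate 2, and 2051 and 1251 in ischemia replicates 2 and 3. Summed FPKM of 7 ventricular marker genes was 2934, 15357 and 2949 in the sham replicates, against 10700, 4912 and 10220 in ischemia. Of these 7 genes, 6 (the light chain gene Myl2 among them) were highest within sham in replicate 2, and Lrrc10 was lowest there. Sham replicate 1 also had 161 counts on chromosome Y, where the other 5 libraries had 3218 to 8970, although the rats are described as male. The heart muscle list (11 genes such as Myh6 and Tnnt2) had a geometric mean of 581.0 to 725.0 FPKM in sham and 172.2 to 408.6 in ischemia, and summed FPKM of 14 neutrophil and monocyte genes was 43.3 to 82.3 in sham and 941.5 to 4318 in ischemia. In bulk tissue fewer cells of a type and less RNA per cell cannot be told apart.

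The first question was which channel transcripts differed after ischemia. Of the 9 genes tested, Abcc9 and Kcnd3 fell and none rose at an edgeR adjusted p under 0.05, where 6.71% of all genes tested passed, 1.53% as lower and 5.18% as higher. Of the 9 log2 fold changes 8 were negative, and the median was -1.91, against -0.0015 over all genes tested. At an unadjusted p under 0.05 in edgeR, 6 of the 9 genes were lower and 0 higher, where 32.4% of all genes tested passed, 14.2% as lower and 18.2% as higher. In 6 of the 9 genes (Kcnj3, Kcnj11, Abcc9, Kcnq1, Kcnh2 and Kcnd3) each ischemia sample lay below each sham sample, as in 15% of all genes tested, while 38.6% did not overlap in either direction. Kcnj2, Kcna5 and Kcnip2 overlapped between the groups. Ischemia replicate 2, which had the highest neutrophil and monocyte sum and the lowest heart muscle mean, was the lowest sample for 7 of the 9 genes, and the part of these markers in the result was not tested.

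Both calls depended on single libraries. With any 1 sample left out the log2 fold change ranged from -1.45 to -1.19 for Abcc9 and from -2.23 to -1.74 for Kcnd3. Leaving out any single sham sample, or ischemia replicate 3, left 0 genes of the set past the edgeR threshold, when between 3 and 6 had an unadjusted p under 0.05. In each of these 4 fits 0 of the 13964 genes passed in either direction, with 3020 to 3809 at an unadjusted p under 0.05. Without ischemia replicate 1, 5 genes of the set passed as lower, and so did 1115 of all genes, with 1490 higher. DESeq2 called 7 genes lower, with Kcnj3, Kcnj11, Kcnq1, Kcnh2 and Kcnip2 beside Abcc9 and Kcnd3, and 1742 of all genes lower and 2071 higher.

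**Figure D1:**
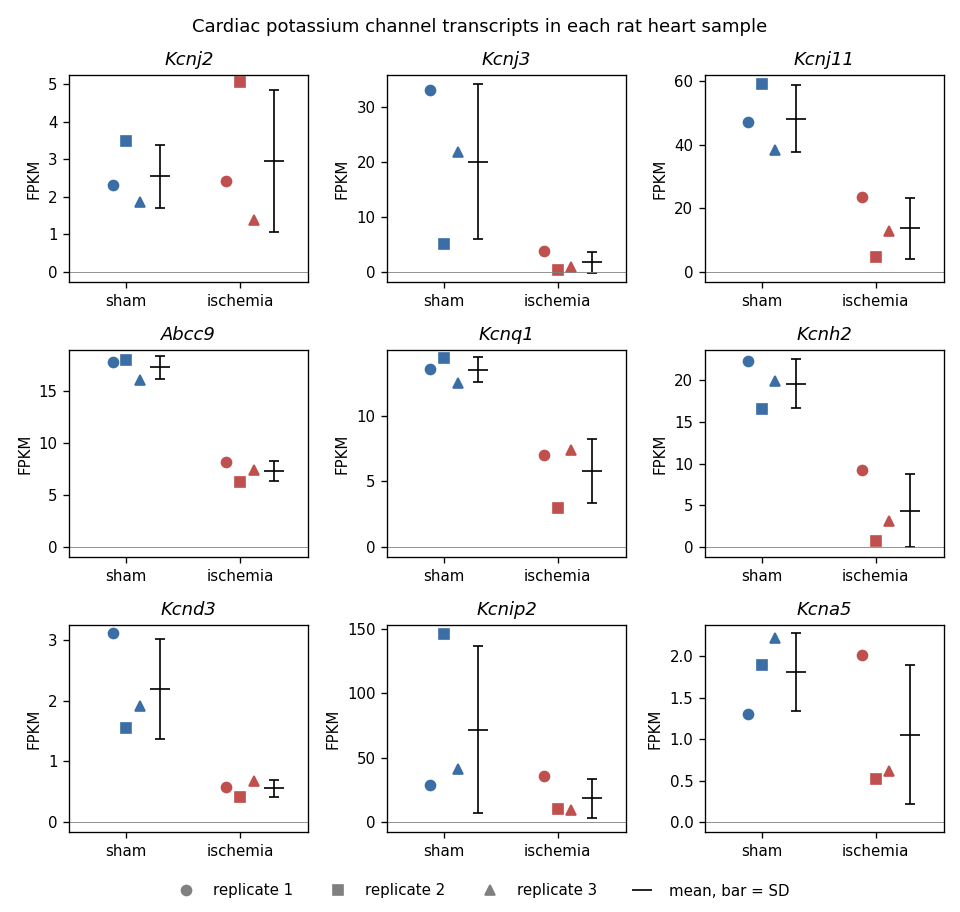
FPKM of the 9 potassium channel genes (y axes) in 3 sham (blue) and 3 ischemia (red) samples, with the mean and SD in black and 1 symbol per replicate number. Abcc9 was tightest, with 16.0 to 18 FPKM in sham and 6.25 to 8.21 in ischemia, while Kcnip2 was spread from 28.5 to 145.8 FPKM within sham alone.

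The ATP-sensitive channel was taken first, as the current named for a fall in ATP. Abcc9 encodes its regulatory subunit SUR2 and lies at chromosome 4 from 176805431 to 176922424 on the minus strand, in the positions of the file, whose genome build is not stated. In the 3 sham samples, in replicate order as throughout, its FPKM was 17.7, 18 and 16.0, and in the 3 ischemia samples it was 8.21, 6.25 and 7.41. The groups were apart, and the spread within each was small. Counts were 9716, 10481 and 8349 against 4864, 3369 and 3780. Abcc9 fell by 1.34 ± 0.22 (SE) on the log2 scale, a 2.53-fold lower level (edgeR adjusted p 0.0351). The log2 fold change was -1.37 without sham replicate 1 (edgeR adjusted p 0.159).

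Kcnj11 encodes the pore Kir6.2 that assembles with SUR2, and is placed on chromosome 1 from 102103094 to 102106127. Its FPKM was 47.1, 59.2 and 38.4 in sham and 23.6, 4.63 and 13.0 in ischemia. Both groups were apart, but the ischemia samples differed 5.10-fold among themselves, with replicate 2 lowest. The log2 fold change of -1.91 ± 0.62 (SE) did not pass (edgeR adjusted p 0.0989), and it was -1.98 without sham replicate 1. It passed without ischemia replicate 1 (-2.54, edgeR adjusted p 0.0430).

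The related subunits Kcnj8 and Abcc8 were read beside them. Kcnj8, the Kir6.1 pore known from vascular smooth muscle and pericytes, had 16.3, 20.0 and 17.7 FPKM in sham and 15.8, 22.6 and 15.3 in ischemia, so that the groups overlapped (log2 fold change -0.13 ± 0.23 SE, edgeR adjusted p 0.716). Endothelial markers summed to 201.0 to 210.4 FPKM in sham and 182.9 to 211.4 in ischemia, and smooth muscle and pericyte markers to 251.9 to 994.5 and 193.1 to 334.8. Abcc8, which encodes SUR1, had 13.2, 8.90 and 11.2 FPKM in sham and 3.44, 0.544 and 2.04 in ischemia, without overlap (-2.51 ± 0.65 SE, edgeR adjusted p 0.0642). The ratio of Kcnj8 to Kcnj11, which does not depend on the scaling between samples, was 0.346, 0.337 and 0.462 in sham and 0.669, 4.89 and 1.18 in ischemia. This ratio was higher in each ischemia sample, on average 4.15-fold (geometric mean), or 2.05 on the log2 scale. That difference was 1.99 without sham replicate 1, 1.24 without ischemia replicate 2 and 2.67 without ischemia replicate 1. The exact two-sided permutation p was 0.1, the smallest that 3 against 3 samples allow, and 0.267 after Benjamini-Hochberg adjustment over the 8 ratios tested. For Kcnj11 over Abcc9 the ratios overlapped, with 2.65, 3.29 and 2.40 in sham and 2.87, 0.740 and 1.75 in ischemia (exact permutation p 0.3, adjusted 0.4).

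The transient outward current was taken next. Kcnd3 encodes the pore Kv4.3 and spans chromosome 2 from 207923775 to 208140727 on the plus strand. Its FPKM was 3.11, 1.55 and 1.91 in sham and 0.586, 0.409 and 0.674 in ischemia. All ischemia samples were lower than the lowest sham sample. Counts were 1618, 856 and 943 against 330, 210 and 327. Kcnd3 fell by 2.02 ± 0.35 (SE) on the log2 scale, a 4.06-fold lower level (edgeR adjusted p 0.0361). Without sham replicate 1, its highest library, the log2 fold change was -1.74 (edgeR adjusted p 0.159).

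Kcnip2 encodes KChIP2, which binds Kv4 pores and raises their density at the membrane. FPKM was 28.5, 145.8 and 41.0 in sham and 35.9, 9.95 and 9.80 in ischemia, with ischemia replicate 1 inside the sham range. Sham replicate 2 stood 5.11-fold above sham replicate 1. That library also had the highest FPKM of the ventricular transcription factor gene Irx4 (18.2, against 1.40 and 1.85 in sham replicates 1 and 3), and the part of chamber in the difference was not tested. Kcnip2 had a log2 fold change of -2.15 ± 0.89 (SE, edgeR adjusted p 0.154). It was -2.56 without sham replicate 1, -0.88 without sham replicate 2 and -3.08 without ischemia replicate 1. The ratio of Kcnip2 to Kcnd3 was 9.17, 94.2 and 21.5 in sham and 61.2, 24.3 and 14.5 in ischemia, which overlapped (exact permutation p 0.9, adjusted 0.9).

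Kcna5 encodes Kv1.5 and Kcna4, its relative, the Kv1.4 pore of the slow transient outward current. Kcna5 had 1.30, 1.90 and 2.23 FPKM in sham and 2.02, 0.527 and 0.618 in ischemia. Ischemia replicate 1 lay among the sham samples and the other two lay below them. Counts were low, between 72 and 302, and the log2 fold change was -0.86 ± 0.62 (SE; edgeR adjusted p 0.358), and -1.08 without sham replicate 1. It was -1.76 without ischemia replicate 1 (edgeR adjusted p 0.0511). Kcna4 had 2.12, 0.894 and 1.25 FPKM in sham and 1.02, 0.264 and 0.439 in ischemia (-1.34 ± 0.59 SE, edgeR adjusted p 0.173). Without ischemia replicate 1 Kcna4 passed (-2.06, edgeR adjusted p 0.0494). The ratio of Kcna4 to Kcna5 overlapped between the groups (exact permutation p 0.7, adjusted 0.8).

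The delayed rectifiers Kcnh2 and Kcnq1 were both lower in each ischemia sample than in any sham sample. Kcnh2 encodes the ERG channel and lies at chromosome 4 from 7355574 to 7387253. Kcnh2 had an FPKM of 22.3, 16.5 and 19.9 in sham and 9.28, 0.720 and 3.13 in ischemia. Within ischemia the samples differed 12.9-fold, and replicate 2 was lowest with 218 counts against 5380 to 6849 in sham. Its log2 fold change was -2.21 ± 0.84 (SE; edgeR adjusted p 0.131). It was -2.15 without sham replicate 1 and -3.38 without ischemia replicate 1, where it passed (edgeR adjusted p 0.0346).

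Kcnq1 encodes the KvLQT1 pore and spans chromosome 1 from 216293087 to 216630339. It had 13.6, 14.4 and 12.5 FPKM in the sham samples, which differed 1.15-fold from lowest to highest, and 6.98, 3.0 and 7.38 in ischemia, without overlap. Kcnq1 had a log2 fold change of -1.30 ± 0.40 (SE, edgeR adjusted p 0.0912), and -1.35 without sham replicate 1. The ratio of Kcnq1 to Kcnh2 was 0.608, 0.872 and 0.629 in sham and 0.752, 4.17 and 2.36 in ischemia, and overlapped through ischemia replicate 1 (exact permutation p 0.2, adjusted 0.32). Kcne1, the minK subunit that slows Kcnq1, had 0.332, 1.98 and 0.526 FPKM in sham and 0.846, 2.30 and 1.03 in ischemia. Its groups overlapped (0.31 ± 0.84 SE on the log2 scale, edgeR adjusted p 0.814). The sign turned with single libraries, from 1.64 without sham replicate 2 to -0.12 without sham replicate 1, -0.020 without sham replicate 3 and -0.17 without ischemia replicate 2. Kcne2, an accessory subunit of several pores, had 1.5, 0.974 and 1.23 FPKM in sham and 0.497, 0.513 and 0.345 in ischemia, and narrowly missed the threshold (-1.51 ± 0.34 SE, edgeR adjusted p 0.0510).

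Of the inward rectifiers, Kcnj2 encodes Kir2.1 and is listed on chromosome 10 from 99437436 to 99439114, a span of 1679 bases, so that reads from any longer transcript end would not be in its values. The same holds for Kcna5, listed over 1809 bases. Kcnj2 FPKM was 2.31, 3.48 and 1.86 in sham and 2.43, 5.05 and 1.38 in ischemia. Both groups overlapped, and ischemia held both the highest and the lowest sample. For Kcnj2 the log2 fold change was 0.038 ± 0.54 (SE; edgeR adjusted p 0.967), -0.086 without sham replicate 1 and -0.52 without ischemia replicate 2. Kcnj12, which encodes Kir2.2, had 11.8, 7.6 and 8.22 FPKM in sham and 4.04, 1.09 and 2.24 in ischemia, without overlap (-1.96 ± 0.50 SE, edgeR adjusted p 0.0639). Kcnj2 over Kcnj12 was 0.196, 0.457 and 0.226 in sham and 0.602, 4.63 and 0.618 in ischemia. This ratio was higher in each ischemia sample, 4.4-fold on average by the geometric mean (exact permutation p 0.1, adjusted 0.267). On the log2 scale it was 2.14 higher, 1.90 without sham replicate 1 and 1.16 without ischemia replicate 2.

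Kcnj3 encodes the acetylcholine-gated pore GIRK1, whose current is best known from the atria. It lies at chromosome 3 from 41019898 to 41181070 on the plus strand. FPKM was 33.1, 5.15 and 21.8 in sham and 3.92, 0.441 and 0.931 in ischemia, from counts of 4613, 763 and 2893 against 591, 61 and 121. The groups did not overlap, although sham replicate 2 and ischemia replicate 1 were close. The log2 fold change of -3.49 ± 1.0 (SE) did not pass (edgeR adjusted p 0.0787). It passed without ischemia replicate 1 (-4.86, edgeR adjusted p 0.0274).

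Within sham, Kcnj3 was highest in the atrial-rich libraries. It was 6.43-fold higher in replicate 1 and 4.24-fold higher in replicate 3 than in replicate 2, and the 12 atrial markers were 2.15-fold (Nr2f1) to 490.5-fold (Nppa) and 1.90-fold (Nr2f1) to 511.3-fold (Myl4) higher. Kcnj5, which encodes the partner pore GIRK4, had 39.2, 8.49 and 24.6 FPKM in sham and 18, 3.18 and 9.06 in ischemia, which overlapped (-1.26 ± 0.73 SE, edgeR adjusted p 0.266). The Kcnj5 value was -1.98 without ischemia replicate 1 and -0.029 without both atrial-rich sham libraries. Without sham replicate 1 the log2 fold change of Kcnj3 was -2.95, and without both atrial-rich sham libraries, which left 1 sham sample, it was -1.82. It had the lowest log2 fold change of the 9 genes with all libraries, but Kcnip2 (-3.27), Kcnj11 (-2.38) and Kcnh2 (-2.18) were lower without both atrial-rich sham libraries, and Kcnip2 was lower with the atrial covariate (-2.19 against -2.12 for Kcnj3). The ratio of Kcnj3 to Kcnj5 was 0.845, 0.607 and 0.886 in sham and 0.218, 0.139 and 0.103 in ischemia. Each ischemia sample was lower than each sham sample, and the geometric mean ratio was 5.26-fold lower than in sham (exact permutation p 0.1, adjusted 0.267). Without sham replicate 1 the difference was -2.33 on the log2 scale. The part of atrial tissue in the difference of Kcnj3 was not tested beyond these values.

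**Figure D2:**
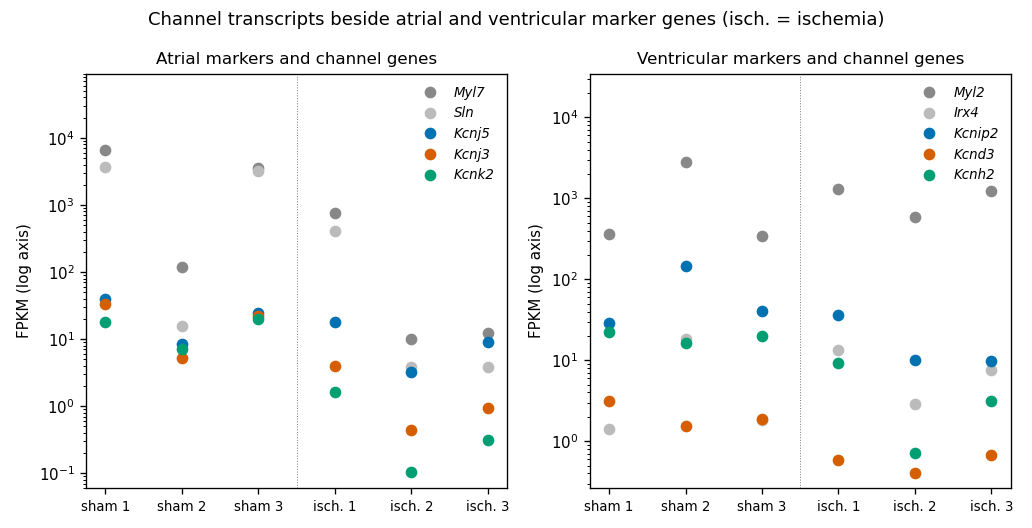
FPKM (log y axis) of channel genes beside atrial markers Myl7 and Sln (left) and ventricular markers Myl2 and Irx4 (right), with 1 point per sample and sham left of the dotted line. Kcnj3 stood at 33.1 and 21.8 FPKM in the atrial-rich sham replicates 1 and 3 and at 5.15 in sham replicate 2, where Kcnip2 peaked at 145.8.

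**Figure D3:**
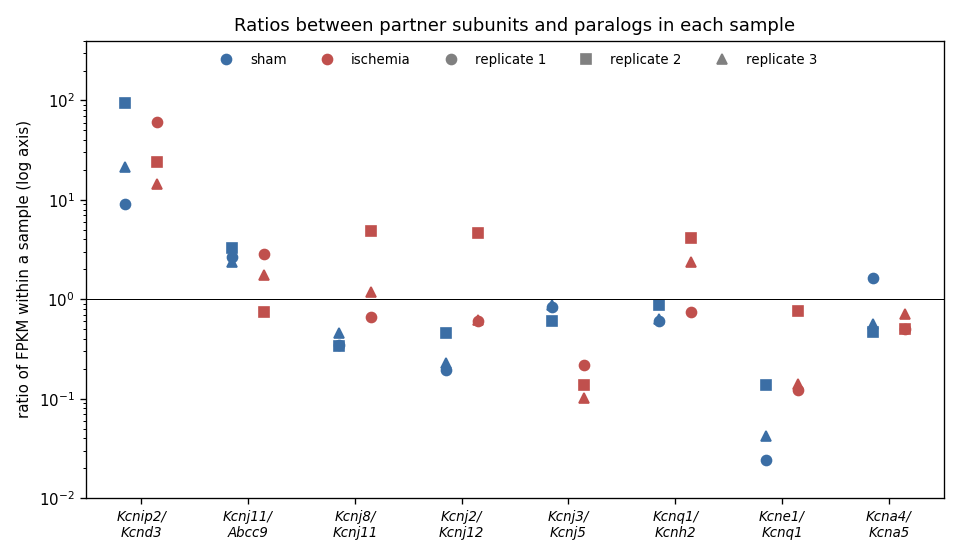
Ratio of FPKM between partner subunits or related genes within each sample (log y axis), for 8 pairs, with sham in blue and ischemia in red. The ischemia points of Kcnj8/Kcnj11 and Kcnj2/Kcnj12 lie above, and those of Kcnj3/Kcnj5 below, every sham point.

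The start regions of Abcc9 and Kcnd3, which fell, and of Kcnj2, which overlapped, are shown so that the genes can be compared by sequence. RefSeq (build GRCr8) gave such a region for 6 of the 10 genes, from 250 bases before to 50 bases after the start. Abcc9 is at chr4:177386299-177386598 on the minus strand, Kcnd3 at chr2:195626066-195626365 on the plus strand and Kcnj2 at chr10:96559975-96560274 on the plus strand. Capitals mark the GC box GGGCGG or its reverse complement CCGCCC, a motif known to bind Sp1 factors.
Abcc9: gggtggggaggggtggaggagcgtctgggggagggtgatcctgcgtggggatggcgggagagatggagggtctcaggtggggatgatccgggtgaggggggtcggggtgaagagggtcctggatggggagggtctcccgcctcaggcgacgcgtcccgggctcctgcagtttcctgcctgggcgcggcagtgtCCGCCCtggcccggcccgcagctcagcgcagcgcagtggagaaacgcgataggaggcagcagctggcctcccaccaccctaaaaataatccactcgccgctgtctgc
Kcnd3: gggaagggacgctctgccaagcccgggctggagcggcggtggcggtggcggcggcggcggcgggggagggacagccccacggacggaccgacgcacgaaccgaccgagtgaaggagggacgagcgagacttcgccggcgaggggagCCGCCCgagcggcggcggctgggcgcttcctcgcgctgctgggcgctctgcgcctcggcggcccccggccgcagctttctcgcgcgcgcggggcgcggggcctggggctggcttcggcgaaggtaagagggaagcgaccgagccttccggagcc
Kcnj2: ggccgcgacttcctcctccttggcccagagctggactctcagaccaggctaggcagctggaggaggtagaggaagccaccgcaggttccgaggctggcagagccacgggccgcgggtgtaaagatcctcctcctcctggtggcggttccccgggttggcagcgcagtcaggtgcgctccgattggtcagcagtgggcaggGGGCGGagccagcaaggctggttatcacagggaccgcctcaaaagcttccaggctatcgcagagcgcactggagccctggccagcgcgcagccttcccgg
All 3 regions were rich in G and C, at 69% for Abcc9, 77.7% for Kcnd3 and 67% for Kcnj2, against a median of 51.7% over 33469 RefSeq start regions. Each held 1 GC box, which 33.1% of all start regions hold, so that the motif was shared by genes that fell and by one that did not pass. Of the 6 genes with a region 4 held the box, with 2 in Kcnip2 and 0 in Kcna5, which both overlapped between the groups. The box began 57 bases before the start in Abcc9, 104 bases before it in Kcnd3 and 50 bases before it in Kcnj2.

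Levels were also ordered per length on the FPKM scale. In sham the order of means was Kcnip2 (71.8 ± 64.4, SD, n = 3), Kcnj11 (48.2 ± 10.5), Kcnj3 (20.0 ± 14.1), Kcnh2 (19.6 ± 2.92), Abcc9 (17.3 ± 1.08), Kcnq1 (13.5 ± 0.945), Kcnj2 (2.55 ± 0.833), Kcnd3 (2.19 ± 0.818) and Kcna5 (1.81 ± 0.469). The first place of Kcnip2 in sham rested on replicate 2, and in sham replicates 1 and 3 it had 28.5 and 41.0 FPKM beside 47.1 and 38.4 for Kcnj11. Kcnip2 and Kcnj11 overlapped, as did Kcnj3 with Kcnh2, Kcnh2 with Abcc9, and Kcnj2, Kcnd3 and Kcna5 with each other. The other neighbours were apart. In ischemia the order was Kcnip2 (18.6 ± 15, SD, n = 3), Kcnj11 (13.7 ± 9.51), Abcc9 (7.29 ± 0.985), Kcnq1 (5.79 ± 2.42), Kcnh2 (4.38 ± 4.42), Kcnj2 (2.95 ± 1.89), Kcnj3 (1.76 ± 1.88), Kcna5 (1.05 ± 0.837) and Kcnd3 (0.557 ± 0.135), and all neighbours overlapped. Kcnj3 was the third by the sham mean and the seventh by the ischemia mean, but its 5.15 FPKM in sham replicate 2, the sham library low in atrial transcripts, was below Kcnq1 there (14.4) as well.

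Because the heart muscle genes had negative log2 fold changes too, the genes were also scaled to the heart muscle list, which raised the median log2 fold change of all genes tested to 1.29. On that scale Abcc9 (-0.13), Kcna5 (0.16) and Kcnq1 (-0.27) were close to 0, and Kcnip2 (-0.91), Kcnd3 (-0.94), Kcnj11 (-0.95), Kcnh2 (-1.43) and Kcnj3 (-2.77) were below 0. Kcnj2 stood at 1.71. None of the 9 passed at an edgeR adjusted p of 0.05, and 1 had an unadjusted p under 0.05, where 1965 of all genes passed as higher and 46 as lower, and 6375 had an unadjusted p under 0.05 in either direction. In the TMM-scaled fit, the median of the 11 heart muscle genes was -1.01 on the log2 scale, all 11 were negative and 0 passed, where 1.53% of all genes tested passed as lower, and 4 of the 11 had an unadjusted edgeR p under 0.05, where 14.2% of all genes were lower at that p.

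**Figure D4:**
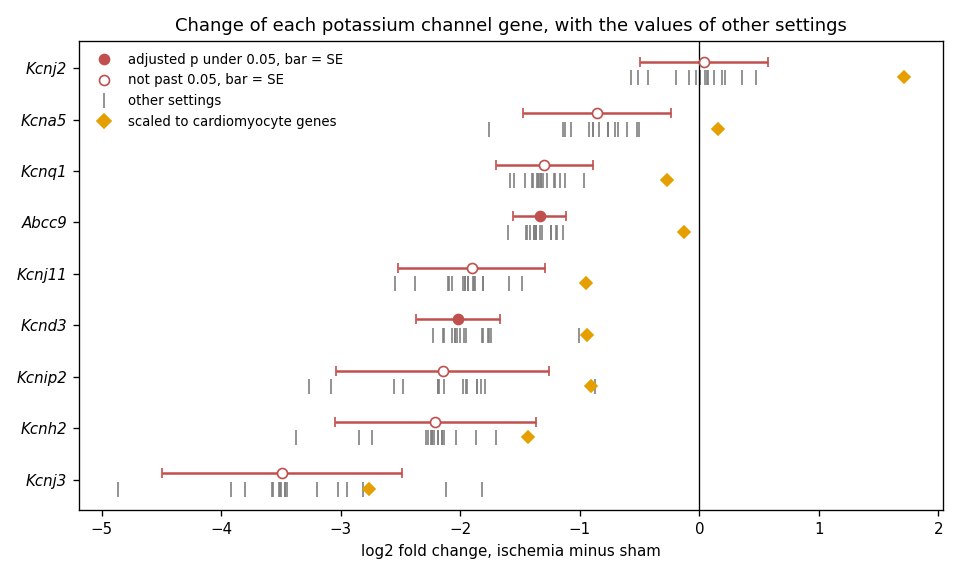
Log2 fold change of the 9 genes (x axis; ischemia minus sham) by edgeR with SE (red, filled past an adjusted p of 0.05), over the values from the other settings (grey) and the value after scaling to heart muscle genes (orange). Abcc9 (-1.34) and Kcnd3 (-2.02) are the filled points, and the orange points lie to the right of the red ones.

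The other potassium channel genes were a list of 65 named by family, of which 64 were matched and 29 were tested. Kcnn4 rose and Kcnn3 fell at an edgeR adjusted p under 0.05, and 27 did not pass, with a median log2 fold change of -0.48 and 19 of 29 below 0. Over all genes tested 5.18% passed as higher and 1.53% as lower. At an unadjusted p under 0.05 in edgeR 7 of the 29 were lower and 3 higher, beside 14.2% and 18.2% of all genes. Without ischemia replicate 1, 7 of the 29 passed the adjusted threshold as lower, among them Abcc8, Kcnj12, Kcna4 and Kcne2, and 3 as higher, among them Kcnk13, where 1115 of the 13964 genes passed as lower and 1490 as higher. Kcnn4 encodes the intermediate-conductance calcium-activated channel known from blood cells and endothelium, and Kcnn3 a small-conductance channel. Kcnn4 had 2.62, 1.74 and 2.06 FPKM in sham and 6.35, 15.4 and 8.76 in ischemia, without overlap. It rose by 2.15 ± 0.34 (SE) on the log2 scale (edgeR adjusted p 0.0317). It was highest in ischemia replicate 2, where neutrophil and monocyte genes were highest (4318 summed FPKM), and the part of these cells was not tested. Kcnn3 had 1.48, 1.12 and 1.26 FPKM in sham and 0.287, 0.339 and 0.464 in ischemia, also without overlap. Kcnn3 fell by 1.89 ± 0.35 on the log2 scale (edgeR adjusted p 0.0397). Neither passed without any one of the sham replicates or without ischemia replicate 3, where the log2 fold changes were 2.07 to 2.26 for Kcnn4 and -2.15 to -1.83 for Kcnn3. Kcnn3 also did not pass without ischemia replicate 2, in either limma fit, with no filter, with total-count scaling or with heart muscle scaling (-0.68, edgeR adjusted p 0.433).

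Tandem-pore channels carry background potassium currents. Kcnk3 (TASK-1) had 43.1, 45.4 and 42.8 FPKM in sham, near the FPKM of Kcnj11, and 28.5, 9.38 and 22.4 in ischemia. Both groups were apart, and the log2 fold change was -1.20 ± 0.44 (SE; edgeR adjusted p 0.125). Kcnk2 (TREK-1), a stretch-sensitive channel, had 18.3, 7.05 and 19.7 FPKM in sham and 1.65, 0.104 and 0.310 in ischemia. Its log2 fold change of -4.45 ± 1.06 (SE) was the lowest of the 29 genes but did not pass (edgeR adjusted p 0.0553). It passed without ischemia replicate 1 (-6.18, edgeR adjusted p 0.0141), and also in DESeq2, in both limma fits, with the filter at 5 FPKM and with heart muscle scaling. Within sham it was 2.59-fold and 2.80-fold higher in the atrial-rich replicates 1 and 3 than in replicate 2. Kcnk13, chosen after its values were seen, had 0.0971, 0.148 and 0.482 FPKM in sham and 1.35, 3.44 and 1.25 in ischemia (2.94 ± 0.72 SE, edgeR adjusted p 0.0581). It was 3.76 without sham replicate 3, and its highest sample was ischemia replicate 2, where neutrophil and monocyte genes were highest, whose part was not tested.

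Of the most abundant voltage-gated genes outside the set, Kcng2, a silent subunit that modifies other pores, had 55.8, 43.3 and 44.9 FPKM in sham and 38.0, 5.91 and 18.9 in ischemia (-1.25 ± 0.63 SE, edgeR adjusted p 0.213, and -2.01 without ischemia replicate 1). Kcns3, another silent subunit, overlapped with 2.05 to 2.76 FPKM in sham and 2.15 to 5.76 in ischemia (0.60 ± 0.37 SE, edgeR adjusted p 0.298).

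**Figure D5:**
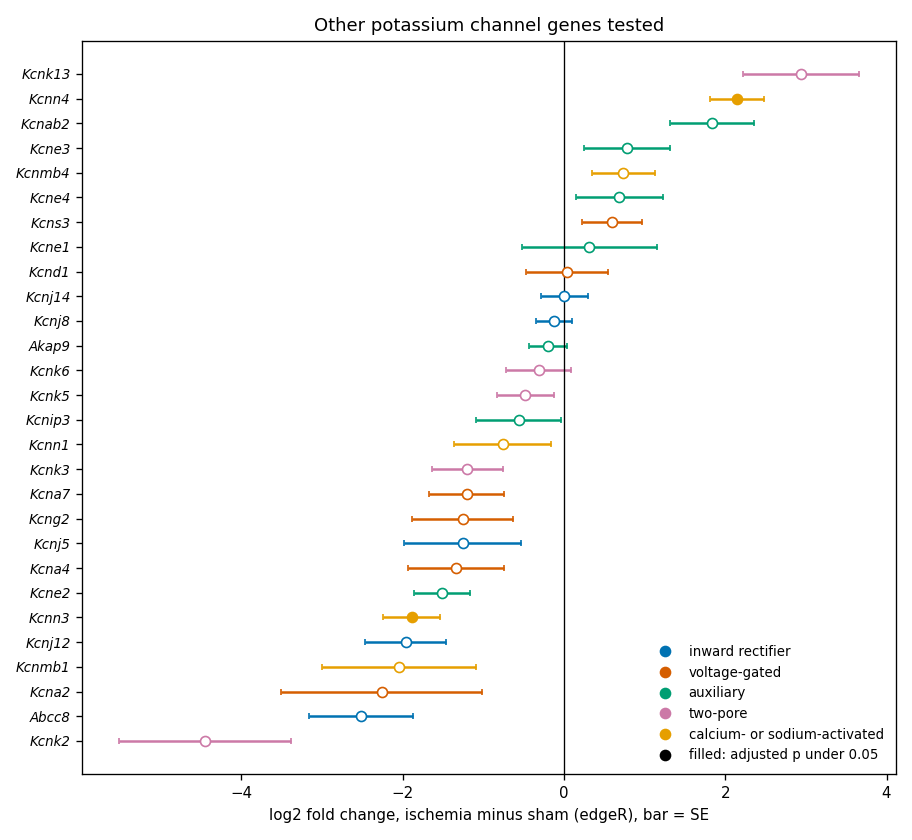
Log2 fold change with SE of the other potassium channel genes tested (x axis; ischemia minus sham; 1 tested gene is not shown), coloured by family and filled past an edgeR adjusted p of 0.05. Only Kcnn4 (2.15) and Kcnn3 (-1.89) are filled, and Kcnk2 (-4.45) is the lowest point.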

How the data were processed

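Total RNA of 3 sham and 3 ischemia samples was sequenced from libraries of a strand-aware kit. The raw counts per gene were deposited by the authors and were used as they stand. FPKM values, scaled by the authors to gene length and library size, were deposited in the same table, with 0.0001 for genes without reads. STAR and HTSeq are named in the submitters' processing notes. Versions, genome build and counting options are not given in the sources used here, so reads of near-identical genes may have been split or lost. No other listed gene overlapped the 9 members.

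Members were read by symbol. The members and lists were chosen with earlier results of these data known. The 13964 genes whose FPKM averaged 0.5 or more were tested with the quasi-likelihood test of edgeR 4.0.16 on TMM-scaled counts, without covariates, with two-sided p-values adjusted by Benjamini-Hochberg over all tested genes (threshold 0.05). SE was derived from the F statistic. Ratios within samples were compared with exact two-sided permutation tests. The pair of Kcnd2 and Kcnd3 was not run, and Kcnip2 was set against Kcnd3 alone. All members with values were named. One other channel gene is counted in its list but is not reported here. Of the other channel genes, those past the threshold, the partners in the ratios and the 3 most abundant per family could be named (less the gene not reported), and Kcne2, Kcnk13 and the genes of the closing section beyond Tbx5, Nfkb1 and Cebpb were chosen after their values were seen.

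Alternatives were limma 3.58.1 on log2(FPKM + 0.1) and log2(FPKM + 1), DESeq2 1.42.0, no filter, a stricter filter at 5 FPKM, 4 other scalings, an atrial covariate, the replicate number as a block and each sample left out. Leaving out both atrial-rich sham samples was added after seeing the data. That fit had 1 sham sample, so only its log2 fold changes are given. At this depth 3 counts were 0.0377 to 0.0438 CPM, which covers counting error only. The script was tested on simulated data. R 4.3.3, Python 3.11.15 and matplotlib 3.10.9 were used.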

Additional observations from a re-analysis of the deposited data

How the results depend on the processing

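Of the 9 genes, all but Kcnj2 and Kcna5 kept a negative log2 fold change under each of the 18 alternatives or those in which they were tested. Kcna5 turned to 0.16 with heart muscle scaling. Kcnj2 turned to -0.43 with the atrial covariate, to -0.026 with the replicate block and to -0.57 without both atrial-rich sham samples. Over the fits that leave out one sample it ranged from -0.52 to 0.47, and members called lower ranged from 0 to 5, other channel genes called higher from 0 to 3 and lower from 0 to 7, all genes called higher from 0 to 1490 and lower from 0 to 1115. The log2 ratio difference of Kcnip2/Kcnd3 ranged from -0.69 to 0.99 over those fits and was -0.096 with 0.1 added to FPKM, and that of Kcna4/Kcna5 from -0.76 to 0.13.

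With the atrial covariate or the replicate block, edgeR called 0 members lower, 0 other channel genes higher or lower and 0 of all genes in either direction, with 2297 and 3349 genes at an unadjusted p under 0.05. Same-numbered samples had a mean correlation of deviations of -0.13, with none of the 3 above 0.1. With 3 samples per group, whose deviations sum to 0, these values cannot tell whether same-numbered samples were paired. DESeq2 called 2071 genes higher and 1742 lower, 7 members lower, and 3 other channel genes higher and 7 lower. Heart muscle scaling called 1965 genes higher and 46 lower against 723 and 214, 0 members and 3 other channel genes higher. Members called lower numbered 1 with limma on log2(FPKM + 1), where Kcnd3 did not pass (-1.01, limma adjusted p 0.0546). They also numbered 1 with a mean FPKM of at least 5, where Kcnj2, Kcna5 and Kcnd3 were not tested. Other channel genes called lower numbered 3 with limma at either pseudocount (2 higher with 0.1), Kcnn3 not among them, 2 with a mean FPKM of at least 5 and with median-ratio scaling, and 0 with no filter and with total counts. All genes called lower numbered 93 with no filter, 86 with total counts and 127 with total counts without the mitochondrial genome. The cause was not tested. The depth left Kcna5 with as few as 72 counts in a sample.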

Other observations

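Genes known to regulate channel expression were read from a list of 13. Cebpb, a stress-responsive transcription factor gene, rose by 2.73 ± 0.42 (SE) on the log2 scale (edgeR adjusted p 0.0303), with 9.32, 10.1 and 17.1 FPKM in sham and 63.4, 143.2 and 54.0 in ischemia, and the other 12 did not pass, where 5.18% of all genes tested passed as higher. Its highest sample was ischemia replicate 2, in which neutrophil and monocyte genes summed highest (4318 FPKM), whose part was not tested, and in edgeR no gene passed without any one of the sham samples or without ischemia replicate 3, with 3020 to 3809 genes at an unadjusted p under 0.05. Nfkb1 had 15.9 to 20.0 FPKM in sham and 17.2 to 37.2 in ischemia, which overlapped (0.36 ± 0.27 SE, edgeR adjusted p 0.372). Tbx5, an atrial and conduction system factor gene, had 60.0, 5.76 and 40.5 FPKM in sham and 13.7, 2.13 and 5.54 in ischemia (-2.29 ± 0.94 SE, edgeR adjusted p 0.153). Irx3, known to act in the conduction system, had 0.951, 12.0 and 0.976 FPKM in sham and 9.41, 4.01 and 5.08 in ischemia, so that sham replicate 2 was the highest sample and the other sham samples the lowest.

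Some channel genes known mainly from neurons were detected chiefly in sham replicate 3. Kcnip4 had 0.516, 0.0214 and 2.20 FPKM in sham and at most 0.126 in ischemia, and Dpp6, which modifies Kv4 pores, had 0.0749, 0.0467 and 0.968 in sham and at most 0.0204 in ischemia. Neither was tested. The neuronal marker gene Stmn2 had 7.70, 0.134 and 47.8 FPKM in the same sham samples and 0.0514 to 0.924 in ischemia. All 8 neuronal markers listed summed to 32.9, 4.91 and 181.9 FPKM in sham and 11.5 to 13.9 in ischemia. Among them Tubb3 had 9.02, 0.622 and 64.3 FPKM in sham and 8.67 to 10.7 in ischemia.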
